A study of Homo sapiens with 4 samples.

Results

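The bone morphogenetic protein ligand BMP4 and 9 genes of the response to BMP signals (ID1, ID2, ID3, ID4, SMAD6, SMAD7, SMAD9, BAMBI and MSX2) were followed in single cells of human blastoids and of the stem cells from which the blastoids were made. The 10 genes were chosen by name, as the ligand and established targets or feedback regulators of its pathway, out of 23364 genes listed in any of the 4 tables. All 10 were listed in each table, and all 10 passed the filter on low counts in each of the 4 comparisons with stem cells and in the comparison of blastoid cell classes. In the comparison of all cells, MSX2 and SMAD9 were under the filter's minimum of 0.645 CPM in at least 1 stem cell sample and passed through the blastoid samples, so a call of either could only be higher.

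BMP ligands bind pairs of type I and type II receptor kinases, which phosphorylate SMAD1, SMAD5 and SMAD9. These join SMAD4 in the nucleus and switch on a short list of direct targets, of which the ID genes are the best known. Several of the targets, among them SMAD6, SMAD7 and BAMBI, act back on the pathway as inhibitors. In early human development BMP signals are known for their part in the formation of amnion, mesoderm and trophoblast-like cells from pluripotent cells.

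All samples derive from KhES1, a human embryonic stem cell line, and so share a single genotype. The hESC group (hESC 1 and hESC 2) was grown on Matrigel in mTeSR-1, with the kinase inhibitor Y27632 at 10 µM on the first day. The blastoid group (blastoid 3 and blastoid 4) was aggregated in AggreWell plates for 24 h with 10 µM Y27632, then held for 3 days in DMEM with 10% FBS in a PNIPAAm-PEG hydrogel, and then moved to iBlastoid medium that was renewed daily. The components of that medium, including any added BMP, are not given in the sources used here. The titles of the blastoid samples carry D0 while the names of their tables carry D9, so each sample's group follows its description. The labels do not say that the samples of a group came from separate cultures, so the p-values measure the spread between these samples only, which may be technical.

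After filtering, 1916 to 3175 cells per sample were kept, with 13255214 to 17679447 UMIs per sample and medians of 4996 to 8798 UMIs per cell. UMIs are tags that mark each captured RNA molecule before amplification, and levels are given as CPM, the number of UMIs per 1000000 UMIs of the same sum. Samples of the same group shared cell barcodes, 1317 in the hESC pair and 1035 in the blastoid pair, against 6 to 14 for pairs from different groups. Of the shared barcodes, 23 were kept as cells in both hESC samples and 0 in both blastoid samples, but most of those kept lay in 1 sample of each pair. In hESC 2, 1310 of 3175 kept cells (41.3%) carried a barcode shared with another sample, and in blastoid 4, 1010 of 1916 (52.7%), against 26 in hESC 1 and 0 in blastoid 3. With these cells left out, the 10 genes kept their calls in the comparison of all cells, in the trophectoderm/amnion-like cells against stem cells and between the 2 large blastoid classes. In mesoderm/mesenchyme-like cells against stem cells 9 of 10 did. The pluripotent-like class was not tested there, because fewer than 20 of its 104 cells in blastoid 4 remained. The blastoid cells fell into 3 main classes, named from marker genes after clustering without the 10 genes and without the other genes of the pathway. Mesoderm/mesenchyme-like cells numbered 1754 in blastoid 3 and 1160 in blastoid 4, trophectoderm/amnion-like cells 413 and 632, and pluripotent-like cells 86 and 104. Of 18 mesoderm/mesenchyme markers, 17 were higher in mesoderm/mesenchyme-like than in trophectoderm/amnion-like cells in each sample, all except COL1A2 (422 and 325 against 442 and 394 CPM). Of 15 trophectoderm/amnion markers, 13 were higher in their own class in blastoid 3 and 14 in blastoid 4. CDX2 went against its class in both samples (14.7 against 82.5 CPM in blastoid 3), and IGFBP3 in blastoid 3 (407 against 473 CPM). COL1A1 stood at 324 and 301 CPM in the mesoderm/mesenchyme-like cells against 67.2 and 76.6 CPM in the trophectoderm/amnion-like cells, and GABRP at 2.61 and 3.56 CPM against 322 and 387 CPM. The pluripotent-like cells had POU5F1 at 764 and 947 CPM and NANOG at 106 and 131 CPM. Their 12 pluripotent markers summed to 3258 and 3510 CPM, against 4214 and 4369 CPM in the stem cells. The same sum was 282 and 186 CPM in mesoderm/mesenchyme-like and 706 and 613 CPM in trophectoderm/amnion-like cells. ZIC2 went against the class in blastoid 3 (3.80 against 5.14 CPM in mesoderm/mesenchyme-like cells), and FOXD3 stood at 0 and 2.96 CPM. The pluripotent-like cells also had 12 of the 15 trophectoderm/amnion markers in at least 10% of cells, against 10 of the 12 pluripotent ones. With 15 principal components 0 of them kept the name, and with BMP genes kept in the clustering 1 did.

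The 10 genes lie on 10 different chromosomes in GRCh38 (GENCODE v29, gene bodies). BMP4 is at chr14:53949736-53958761 on the minus strand, ID1 at chr20:31605283-31606515 on the plus strand, ID2 at chr2:8678845-8684453 on the plus strand, ID3 at chr1:23557918-23559794 on the minus strand and ID4 at chr6:19837386-19840684 on the plus strand. SMAD6 is at chr15:66702228-66782848 on the plus strand, SMAD7 at chr18:48919853-48952052 on the minus strand, SMAD9 at chr13:36844831-36920765 on the minus strand, BAMBI at chr10:28677342-28682939 on the plus strand and MSX2 at chr5:174724533-174730893 on the plus strand. The 250 bases before the annotated start of all 10 genes were read from RefSeq (GRCh38.p14) and searched on both strands for short motifs tied to SMAD binding. The first was the palindrome GTCTAGAC. The next was GGCGCC, which is also a palindrome. A further motif was GGCGTC, which reads GACGCC on the opposite strand. The shortest was CAGAC, which reads GTCTG on the opposite strand. Letters of the TATA box were searched as TATAAA, which reads TTTATA on the opposite strand. CAGAC can overlap the end of GGCGTC. Of 35116 windows of the same length, 0.182% held GTCTAGAC, 16.4% GGCGCC, 12.2% GGCGTC, 38.0% CAGAC and 10.7% TATAAA. The windows of 4 genes are shown because they differ most in what they hold, and because ID1 and ID3 on one side and SMAD6 and BAMBI on the other took opposite directions in the estimates between blastoid cell classes given below. Matches are in capitals, and each sequence runs 5′ to 3′ on the gene's own strand.
ID1, chr20:31605039-31605288, plus strand: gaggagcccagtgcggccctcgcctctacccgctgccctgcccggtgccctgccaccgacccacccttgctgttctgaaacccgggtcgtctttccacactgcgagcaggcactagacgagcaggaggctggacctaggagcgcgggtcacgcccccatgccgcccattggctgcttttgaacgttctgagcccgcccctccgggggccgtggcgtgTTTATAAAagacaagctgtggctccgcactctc
ID3, chr1:23559502-23559751, minus strand: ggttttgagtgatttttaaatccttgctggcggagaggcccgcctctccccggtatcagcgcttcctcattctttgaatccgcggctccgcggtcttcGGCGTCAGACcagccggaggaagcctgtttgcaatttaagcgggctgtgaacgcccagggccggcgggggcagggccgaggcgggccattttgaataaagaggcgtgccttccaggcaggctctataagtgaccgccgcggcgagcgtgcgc
SMAD6, chr15:66701986-66702235, plus strand: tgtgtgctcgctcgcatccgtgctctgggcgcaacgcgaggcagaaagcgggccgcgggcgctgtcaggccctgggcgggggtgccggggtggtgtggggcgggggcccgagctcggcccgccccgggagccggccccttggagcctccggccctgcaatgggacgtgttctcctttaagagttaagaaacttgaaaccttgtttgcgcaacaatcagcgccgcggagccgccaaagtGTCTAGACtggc
BAMBI, chr10:28677271-28677520, plus strand: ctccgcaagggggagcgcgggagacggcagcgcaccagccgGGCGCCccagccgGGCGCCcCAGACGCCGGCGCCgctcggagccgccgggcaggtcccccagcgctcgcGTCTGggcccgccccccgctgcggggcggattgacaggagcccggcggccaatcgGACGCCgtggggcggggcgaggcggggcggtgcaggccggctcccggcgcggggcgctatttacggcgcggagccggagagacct
The ID1 window held TATAAA letters on both strands in 1 overlapping run that began 33 bases before the start and no SMAD-type motif. In ID3, GGCGTC at -152 ran on into CAGAC at -147. The SMAD6 window held GTCTAGAC at -12, and none of the other 4 letter strings. BAMBI held GGCGCC 3 times, at -209, -196 and -181, with GACGCC at -187 and -85, CAGAC at -189 and GTCTG at -140. No match to any of the 5 was found in the windows of ID2 and SMAD9. A match is a description of letters and says nothing of binding in these cells.

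BMP4 and 8 of the 9 response genes were higher in blastoid cells than in stem cells, and ID3 was the exception. Calls rest on edgeR's quasi-likelihood test, with a Benjamini-Hochberg adjusted p over all genes of less than 0.05. Of the 16332 genes tested, 27.1% were called higher in blastoids and 49.9% in either direction, so a call by itself was common. The share of all genes whose groups did not overlap is not given here, so non-overlap below describes single genes only. Of the 8 genes that reached the filter's minimum in both stem cell samples, 7 were called higher and ID3 was not called. MSX2 and SMAD9 were also called with no filter on low counts, at log2 fold changes of 8.67 and 4.74 (edgeR adjusted p = 4.59e-13 and 7.64e-10). The median log2 fold change was 3.33 over the 10 genes and 0.05 over all genes tested. In sums over all cells of a sample, fewer cells that express a gene and less RNA per cell cannot be told apart.

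BMP4, the secreted ligand, stood at 4.60 and 5.78 CPM in hESC 1 and hESC 2 and at 178 and 142 CPM in blastoid 3 and blastoid 4. Both blastoid samples lay far above both stem cell samples. The log2 fold change was 4.80 ± 0.18 (SE, n = 2 against 2, adjusted p = 6.6e-06 in edgeR's quasi-likelihood test), or 27.9-fold.

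The ID genes encode helix-loop-helix proteins that bind other helix-loop-helix factors and keep them from DNA. ID1 stood at 151 and 118 CPM in the stem cells and at 351 and 524 CPM in the blastoids, a log2 fold change of 1.58 ± 0.24. ID2 stood at 46.5 and 39.9 CPM against 513 and 622 CPM, a change of 3.59 ± 0.19. ID4 stood at 13.7 and 8.99 CPM against 84.4 and 73.4 CPM, a change of 2.67 ± 0.21. For these 3 genes the groups did not overlap, with adjusted p in edgeR of 0.00172, 1.72e-05 and 9.15e-05 in that order. ID3 stood at 271 and 249 CPM in the stem cells and at 206 and 284 CPM in the blastoids, so the stem cell values lay between the blastoid values. Its log2 fold change was -0.21 ± 0.20 with a 95% interval of -0.67 to 0.25 (edgeR adjusted p = 0.408). ID3 was called in 1 of 11 alternatives, with adjusted p from 0.000505 to 0.788: without blastoid 4 the change was -0.55 and called, and without blastoid 3 it was 0.06.

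The make-up of the ID family shifted with this. ID3 gave 56.2% and 59.9% of all ID UMIs in the stem cells and 17.9% and 18.9% in the blastoids. ID2 gave 9.65% and 9.58% against 44.4% and 41.4%. The summed level of the 4 genes was 482 and 416 CPM in the stem cells and 1155 and 1503 CPM in the blastoids. In these sums over all cells ID1 kept a share of 28.4% to 34.9% in all 4 samples, while the ratio of ID2 to ID3 turned over. Within the blastoid classes the ID1 share was not steady. It was 22.4% and 23.7% in mesoderm/mesenchyme-like, 40.6% and 42.1% in trophectoderm/amnion-like and 38.8% and 40.7% in pluripotent-like cells, classes described below.

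SMAD6 and SMAD7 are the inhibitory SMADs, which block the receptors and the signal-carrying SMADs. SMAD6 stood at 2.11 and 1.82 CPM in the stem cells and at 19.3 and 17.1 CPM in the blastoids, a log2 fold change of 3.08 ± 0.20. SMAD7 stood at 15.1 and 13.2 CPM against 51.7 and 32.8 CPM, a change of 1.44 ± 0.21. SMAD9 is itself a signal-carrying SMAD, and it stood at 0.604 and 0.880 CPM, from 8 and 14 UMIs, against 26.9 and 16.9 CPM, a change of 4.71 ± 0.32. All 3 were called in edgeR, with adjusted p of 4.12e-05, 0.00135 and 4.51e-05, and none of their groups overlapped.

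BAMBI encodes a membrane protein that resembles a type I receptor without its kinase. It stood at 7.92 and 8.48 CPM in the stem cells and at 282 and 318 CPM in the blastoids, a log2 fold change of 5.06 ± 0.17 (edgeR adjusted p = 4.98e-06). MSX2 encodes a homeobox transcription factor. It was nearly absent from the stem cells, with 5 UMIs in each sample (0.377 and 0.314 CPM), and stood at 144 and 162 CPM in the blastoids, a change of 8.64 ± 0.24 (edgeR adjusted p = 4.86e-06). Neither gene's groups overlapped.

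**Figure D1:**
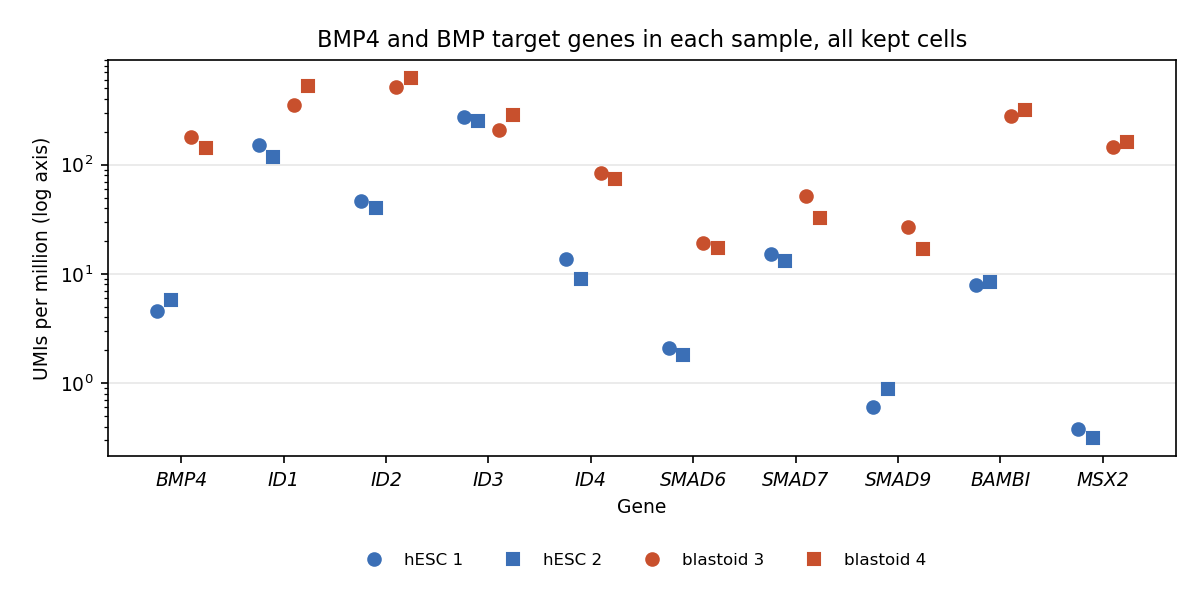
UMIs per 1000000 (CPM) of the 10 genes (log axis) in the 2 hESC samples (blue) and the 2 blastoid samples (red), summed over all kept cells. Both blastoid points lie above both hESC points for every gene except ID3, whose blastoid points at 206 and 284 CPM straddle the hESC points.

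Shares of cells were compared at equal depth by thinning each cell at random to 2000 UMIs. This left 1803, 2202, 2171 and 1874 cells in hESC 1, hESC 2, blastoid 3 and blastoid 4. BMP4 was then detected in 0.943% and 1.09% of stem cells and in 25.8% and 21.6% of blastoid cells, against 2.68% and 2.83% of stem cells before thinning. MSX2 was detected in 0.111% and 0.136% against 23.3% and 24.5%, BAMBI in 1.05% and 1.59% against 38.9% and 39.5%, and ID2 in 8.87% and 7.22% against 54.2% and 60.1%. For 9 genes both blastoid shares were above both stem cell shares, and how many of all genes had this order is not given here. The ID3 shares were 36.8% and 36.0% in the stem cells and 27.0% and 35.9% in the blastoids. With 2 samples against 2 the exact two-sided permutation test cannot go below p = 0.33, and it gave that value for all 10 genes. The mean number of the 9 response genes detected per cell at this depth was 0.773 and 0.700 in the stem cells and 2.11 and 2.33 in the blastoids. At least 3 were detected together in 2.33% and 1.73% of stem cells and in 35.9% and 43.0% of blastoid cells.

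Within the blastoids the level of the ligand and the levels of part of the response genes ran in opposite directions between the 2 large classes. BMP4 was lower in trophectoderm/amnion-like than in mesoderm/mesenchyme-like cells, while the 4 ID genes and MSX2 were higher there and SMAD7, SMAD9 and BAMBI were lower. The test compared the 2 classes with the sample as a block (n = 2 sums per class). Of the 13955 genes tested, 25.7% were called higher and 25.1% lower in trophectoderm/amnion-like cells, 50.8% in all. Among the 10 genes, 5 were called higher and 4 lower, with a median log2 difference of 0.28 against -0.03 over all genes. Scaled by library size alone, 39.0% of all calls in this comparison were higher, against 50.6%. The classes were drawn from the same cells, on genes that may vary together with these 10, and the p-values do not allow for that.

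BMP4 stood at 224 and 222 CPM in the mesoderm/mesenchyme-like cells of blastoid 3 and blastoid 4 and at 27.0 and 26.0 CPM in the trophectoderm/amnion-like cells. The log2 difference was -2.95 ± 0.11 (edgeR adjusted p = 7.62e-13). The mesoderm/mesenchyme-like class held 76.0% and 57.2% of all blastoid UMIs and gave 95.3% and 89.5% of the BMP4 UMIs. Trophectoderm/amnion-like cells held 18.4% and 34.3% of all UMIs and gave 2.78% and 6.30% of the BMP4 UMIs. The BMP4 level in these cells was 12.1% and 11.7% of that in the mesoderm/mesenchyme-like cells. The 14 mesoderm/mesenchyme markers with at least 20 CPM in the latter were at a median of 6.21% and 8.06%, ranging from 1.39% to 105% in the former sample and from 1.31% to 121% in the latter. The summed level of all 18 such markers was 748 and 747 CPM against 5402 and 4585 CPM. TBX20 was at 0 in the trophectoderm/amnion-like cells of both samples, but at only 7.23 and 3.56 CPM in the mesoderm/mesenchyme-like cells. Free RNA as a source of the BMP4 UMIs there was not tested.

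ID1 took the opposite course. It stood at 961 and 995 CPM in the trophectoderm/amnion-like cells and at 188 and 238 CPM in the mesoderm/mesenchyme-like cells, a log2 difference of 2.33 ± 0.08 (edgeR adjusted p = 5.3e-13). Trophectoderm/amnion-like cells gave 50.3% and 65.2% of all ID1 UMIs and 46.5% and 60.6% of ID4 UMIs. They gave 31.8% and 47.9% of ID2, 27.5% and 45.0% of ID3 and 31.0% and 45.8% of MSX2 UMIs, while the more numerous mesoderm/mesenchyme-like cells gave 63.5% and 47.1%, 63.4% and 44.8%, and 64.6% and 50.3%. ID4 stood at 213 and 130 CPM against 48.9 and 34.6 CPM, a difference of 2.15 ± 0.10. ID2 stood at 887 and 868 CPM against 429 and 512 CPM, a difference of 1.03 ± 0.08, and ID3 at 309 and 372 CPM against 172 and 222 CPM, a difference of 0.92 ± 0.08. For each ID gene the classes did not overlap, and the share of all genes for which this held is not given here. The edgeR adjusted p ranged up to 9.44e-08 for ID3. The 4 ID genes together reached 2370 and 2365 CPM in trophectoderm/amnion-like cells, and 838 and 1007 CPM in mesoderm/mesenchyme-like cells. MSX2 followed the ID genes, at 243 and 215 CPM against 122 and 142 CPM (0.92 ± 0.11, edgeR adjusted p = 2.54e-06).

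BAMBI, SMAD7 and SMAD9 had the ligand's direction instead. BAMBI stood at 330 and 447 CPM in mesoderm/mesenchyme-like cells and at 141 and 162 CPM in trophectoderm/amnion-like cells, a log2 difference of -1.22 ± 0.12 (edgeR adjusted p = 3.06e-07). SMAD9 stood at 33.5 and 25.7 CPM against 6.83 and 5.93 CPM, a difference of -2.05 ± 0.19, and SMAD7 at 55.9 and 41.9 CPM against 33.1 and 18.9 CPM, a difference of -0.83 ± 0.14. The edgeR adjusted p was 8.38e-08 for SMAD9 and 0.000108 for SMAD7. SMAD6 stood at 21.3 and 19.6 CPM against 13.7 and 14.8 CPM and missed the threshold (-0.36 ± 0.17, 95% interval -0.71 to -0.01, edgeR adjusted p = 0.0793). It was called in 2 of 10 alternatives, with adjusted p from 0.00540 to 0.472. Thus the values of BAMBI, SMAD7, SMAD9 and SMAD6 were all highest where BMP4 was highest, and those of the ID genes and MSX2 where it was lowest, among these 2 classes.

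**Figure D2:**
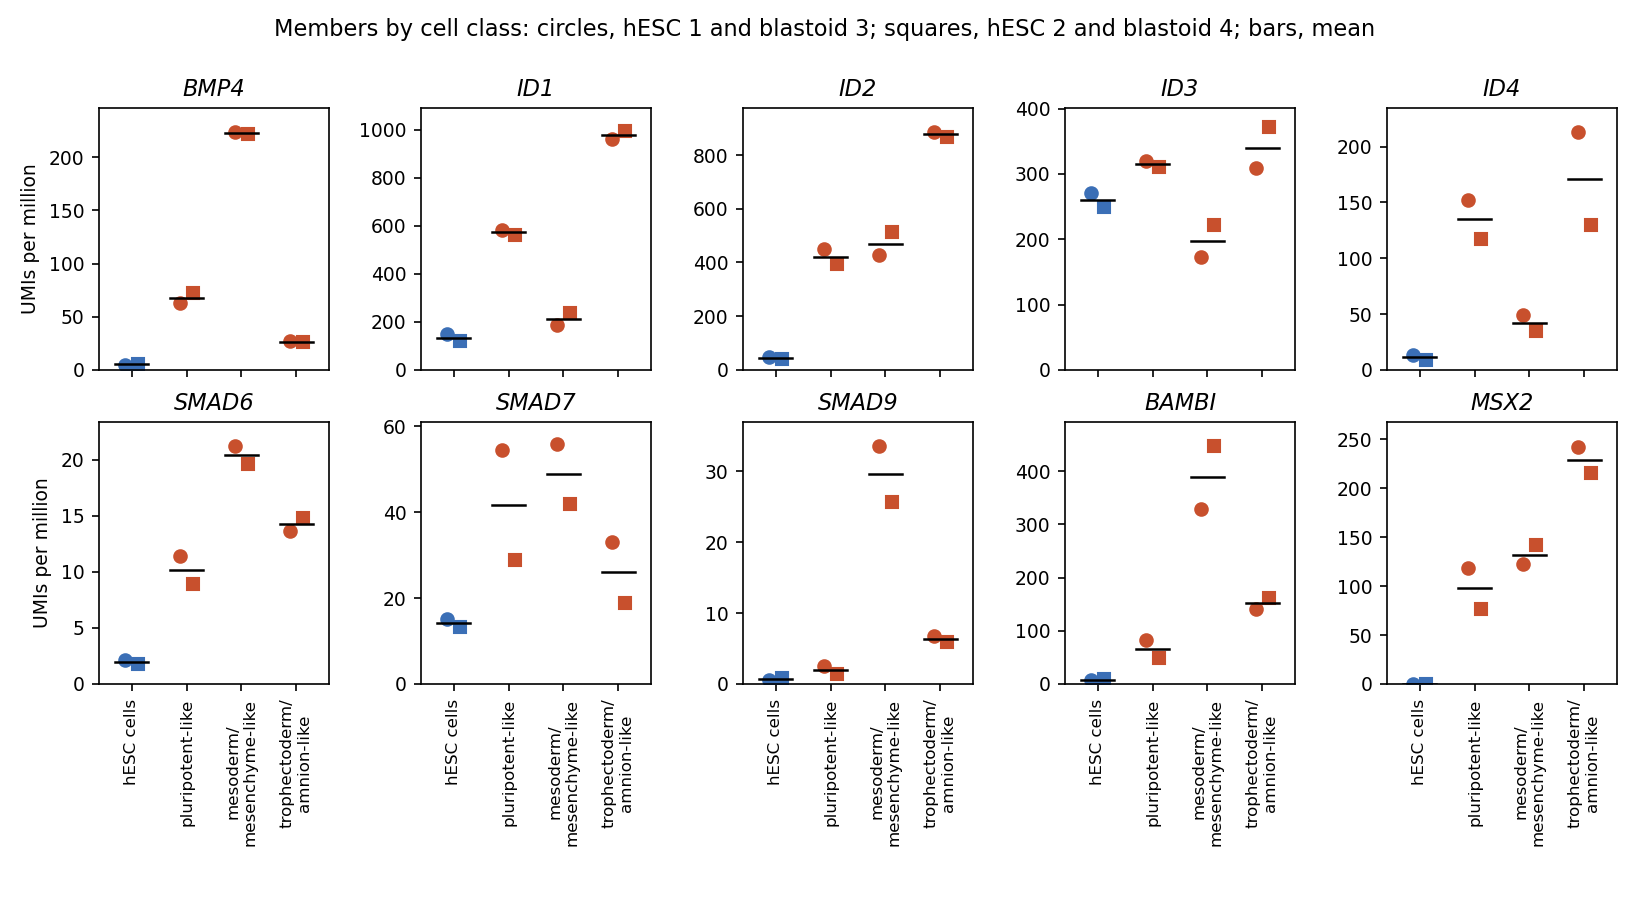
UMIs per 1000000 (CPM) of the 10 genes in hESC cells (blue) and in the 3 main blastoid classes (red), 1 point per sample and a bar at the mean of 2. BMP4 peaks at 224 and 222 CPM in the mesoderm/mesenchyme-like class, where ID1 is at 188 and 238 CPM, and ID1 peaks at 961 and 995 CPM in the trophectoderm/amnion-like class.

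Each class was also compared with the stem cells in 1 edgeR fit over 15906 genes, and the 3 comparisons share the hESC samples. When counts were scaled by library size alone, the share of calls that were higher went from 53.2% to 65.9% for the pluripotent-like and from 49.4% to 62.4% for the mesoderm/mesenchyme-like cells. In trophectoderm/amnion-like cells 9 of the 10 genes were called higher, against 26.6% of all genes and 52.8% called in either direction. The exception was ID3, at 0.32 ± 0.18 (edgeR adjusted p = 0.156), called only without blastoid 3 among 14 alternatives, with adjusted p from 0.000264 to 0.480. BMP4 was higher here too, by 2.27 ± 0.18 on the log2 scale. SMAD7 was higher by 0.74 ± 0.25 (edgeR adjusted p = 0.0276) and was called in 11 of 14 alternatives, with adjusted p from 0.000132 to 0.153. It was not called without hESC 1, where the change was 0.86, without hESC 2, where it was 0.63, or with thinned sums.

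In mesoderm/mesenchyme-like cells 9 genes were called higher, against 24.9% of all genes, and ID3 lower, against 25.5%. The rise of ID1 in these cells was small, 0.47 ± 0.18 (edgeR adjusted p = 0.0474), and it was called in 8 of 14 alternatives, with adjusted p from 3.64e-05 to 0.365. Without blastoid 4 it was 0.23, and without hESC 2 it was 0.29, neither called. It was 0.39 and not called with the shared barcodes left out. ID3 fell by 0.59 on the log2 scale (SE 0.18, edgeR adjusted p = 0.0166), called in 12 of 14 alternatives with adjusted p from 1.24e-05 to 0.122. It was not called without hESC 1, where the value was -0.52. BAMBI, at 5.37 ± 0.25, and BMP4, at 5.22 ± 0.18, were among the large rises in this class.

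In pluripotent-like cells 8 genes were called higher, against 9.74% of all genes, and 0 lower, against 8.58%. BMP4 stood at 63.3 and 72.5 CPM there, 3.59 ± 0.20 above the stem cells on the log2 scale. ID1 stood at 583 and 563 CPM, ID2 at 449 and 393 CPM, ID4 at 152 and 118 CPM and MSX2 at 119 and 76.9 CPM. These cells carry the name of the stem cell class, yet their values of these genes lay above those of both stem cell samples. ID3, at 320 and 310 CPM, and SMAD9, with 2 UMIs in each sample, were not called (0.15 ± 0.19 and 1.18 ± 0.72, edgeR adjusted p = 0.642 and 0.342). SMAD6 was called in 9 of 11 alternatives and SMAD7 in 10 of 11, with adjusted p up to 0.0995 and 0.0540. SMAD7 was not called without hESC 2, where the change was 1.24. The summed level of the 15 trophectoderm/amnion markers was 931 and 759 CPM in these cells, against 328 and 319 CPM in the stem cells with none of them at 0. Their part in the result was not tested.

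Over the finer clusters BMP4 had a clear maximum. The cluster led by NPNT and TECRL, with MYL7 among its leading genes, stood at 483 and 563 CPM of BMP4 in blastoid 3 and blastoid 4. The other 4 mesoderm/mesenchyme-like clusters lay between 179 and 260 CPM. Of these, the cluster led by KYNU and PRRX1 was next, at 260 and 212 CPM, apart from the cluster led by TRPA1 and PITX1 at 205 and 189 CPM. The latter overlapped the MESP1 and MSGN1 cluster at 182 and 202 CPM, which overlapped the CXCL14 and MGP cluster at 179 and 194 CPM. The NPNT and TECRL cluster held 3.11% and 3.88% of the blastoid UMIs and gave 8.43% and 15.4% of the BMP4 UMIs. At 2000 UMIs per cell BMP4 was detected in 54.4% of its cells in blastoid 3 (exact 95% interval 43.6% to 65.0%, 90 cells) and in 56.6% in blastoid 4 (46.2% to 66.5%, 99 cells). In the trophectoderm/amnion-like cells the shares were 4.99% (2.98% to 7.77%, 361 cells) and 4.71% (3.18% to 6.69%, 616 cells). These intervals are Clopper-Pearson intervals and cover counting error only. Without thinning, up to 19 BMP4 UMIs were counted in 1 cell of the NPNT and TECRL cluster of blastoid 4, and 5 or more in 17.6% and 37.6% of its cells. In the stem cells no cell had more than 2.

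**Figure D3:**
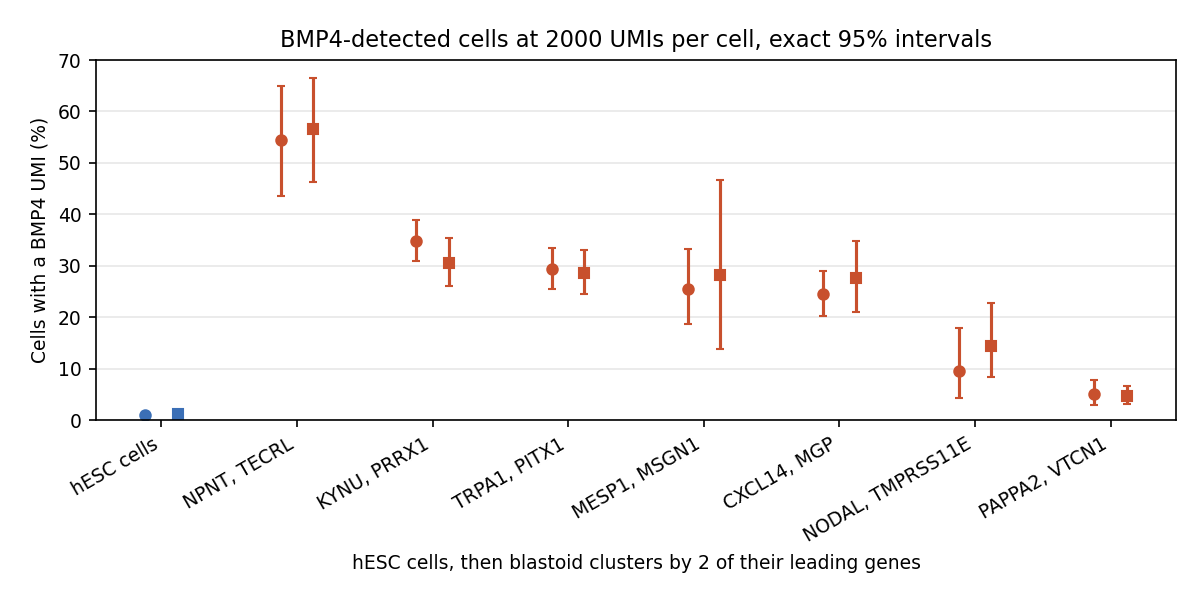
Share of cells with a BMP4 UMI after thinning to 2000 UMIs per cell, in hESC cells (blue) and in 7 blastoid clusters (red, circles blastoid 3, squares blastoid 4), each with an exact 95% interval. The NPNT and TECRL cluster is highest at 54.4% and 56.6%, and the PAPPA2 and VTCN1 cluster, which is the trophectoderm/amnion-like class, is lowest of the blastoid clusters at 4.99% and 4.71%.

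The response genes did not share 1 pattern over these clusters. Among blastoid clusters, each ID gene was lowest in the CXCL14 and MGP cluster. ID1 stood there at 75.0 and 99.0 CPM and ID3 at 55.9 and 81.1 CPM, below both stem cell samples. ID2 stood at 237 and 294 CPM and ID4 at 23.1 and 21.5 CPM, above both stem cell samples. BAMBI in the same cluster stood at 429 and 572 CPM, which overlapped its highest values, 513 and 621 CPM in the NPNT and TECRL cluster. At 2000 UMIs, cells of the CXCL14 and MGP cluster had the fewest response genes, a mean of 1.36 and 1.51 of 9. Trophectoderm/amnion-like cells had 2.99 and 2.75, and the MESP1 and MSGN1 cluster 2.37 and 2.88.

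ID3 was highest in the MESP1 and MSGN1 cluster, at 469 and 793 CPM, above its values in the trophectoderm/amnion-like cells. ID1 ranked behind the trophectoderm/amnion-like and pluripotent-like cells there, at 404 and 528 CPM. This cluster had 152 cells in blastoid 3 and 32 in blastoid 4. SMAD6 was highest in the NPNT and TECRL cluster, at 40.4 and 37.9 CPM from 19 and 26 UMIs. SMAD9 was lowest in the pluripotent-like cells, at 2.53 and 1.48 CPM, and between 14.6 and 36.6 CPM in the mesoderm/mesenchyme-like clusters. SMAD7 varied least in order, and every cluster overlapped the next one in its ranking.

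Over the 13 sums of 1 cluster in 1 blastoid sample with at least 50 cells, the Pearson correlation of log2(CPM + 1) between BMP4 and SMAD6 was 0.71, between BMP4 and BAMBI 0.70 and between BMP4 and SMAD9 0.67. It was -0.68 between BMP4 and ID1 and -0.77 between BMP4 and ID4. The remaining response genes were weaker, at -0.51 for ID3, 0.44 for SMAD7, -0.36 for ID2 and -0.20 for MSX2. By Spearman's rho MSX2 was at 0.12, so its sign depended on the measure. ID1 went with ID4 at 0.89 and with ID3 at 0.85, and ID2 with MSX2 at 0.92. These are descriptions over sums that share 2 libraries and class membership, and no p is given.

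**Figure D4:**
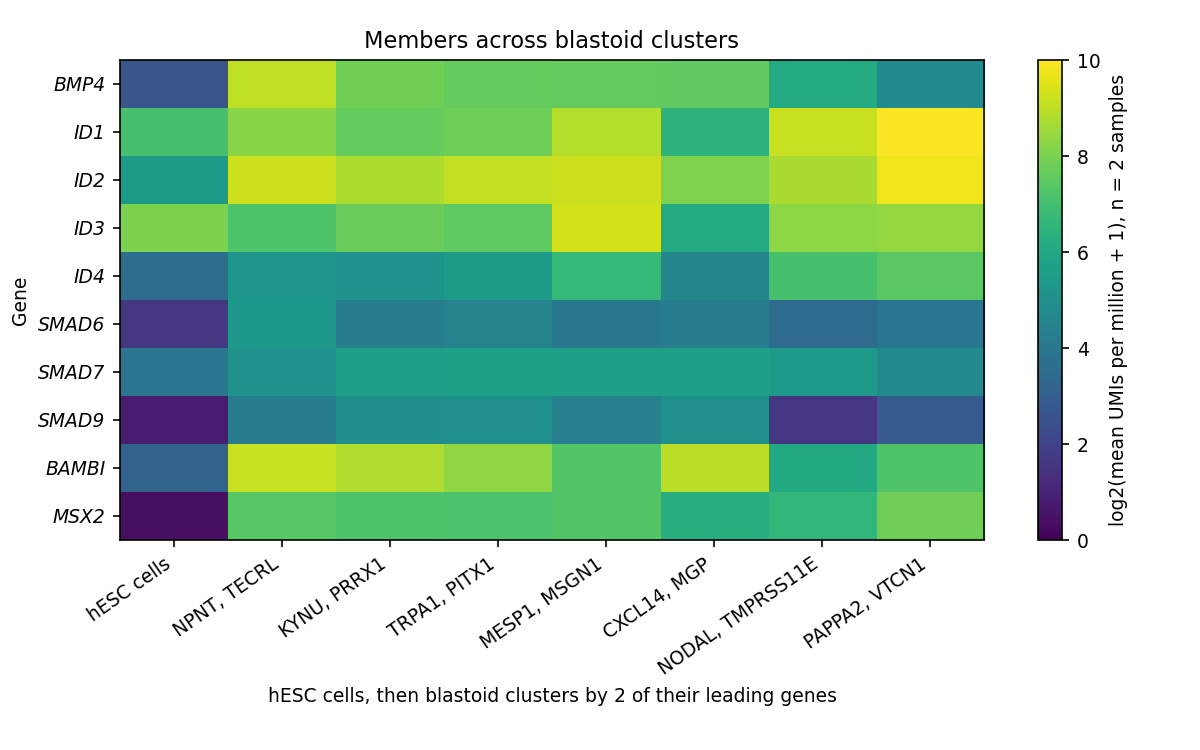
Colour shows log2 of the mean CPM plus 1 over 2 samples for the 10 genes (rows) in hESC cells and in 7 blastoid clusters (columns, named by 2 of their leading genes). BMP4 and SMAD6 are highest in the NPNT and TECRL column, ID3 in the MESP1 and MSGN1 column, and ID1, ID2, ID4 and MSX2 in the PAPPA2 and VTCN1 column.

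Cells with at least 1 BMP4 UMI were then compared with cells without, within each sample and class. A UMI marks detection in that cell's library, and cells without one include cells whose BMP4 RNA was not captured, so a difference that was not called does not show that the groups were alike. Without thinning, a BMP4 UMI was found in 58.7% and 67.9% of mesoderm/mesenchyme-like, 15.0% and 19.5% of trophectoderm/amnion-like and 2.68% and 2.83% of stem cells. Depth was unequal, with medians of 6181 and 8398.5, 6178 and 9063.5, and 5769 and 4996 UMIs per cell in the same order. None of the 9 response genes was called. Of the 12738 genes tested, 111 (0.871%) were called at an adjusted p under 0.05 in edgeR, 0.393% higher and 0.479% lower, and 957 had an unadjusted p under 0.05. DESeq2 called 0 genes, with 298 at an unadjusted p under 0.05. None of the 9 response genes had an unadjusted p under 0.05 in edgeR. BMP4 chose the cells and was not tested.

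In the mesoderm/mesenchyme-like cells of blastoid 3, ID1 stood at 195 CPM in 1029 cells with BMP4 and at 175 CPM in 725 cells without it. In blastoid 4 it stood at 257 CPM in 788 cells and at 192 CPM in 372 cells. Over all classes the log2 difference was 0.05 ± 0.06 (95% interval -0.06 to 0.17). BAMBI stood at 338 against 317 CPM and at 448 against 445 CPM, with a difference of 0.05 ± 0.05 (-0.06 to 0.16). MSX2 stood at 121 against 125 CPM and at 142 against 141 CPM, with a difference of -0.07 ± 0.06 (-0.19 to 0.05). The intervals of ID1, ID2, ID3, ID4, BAMBI and MSX2 all lay within -0.27 to 0.17, those of the less abundant SMAD6, SMAD7 and SMAD9 within -0.51 to 0.47. Cells with BMP4 were deeper, at medians of 6622 against 5581 UMIs in the mesoderm/mesenchyme-like cells of blastoid 3 and 8884 against 7639 UMIs in blastoid 4.

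With at least 2 BMP4 UMIs required, 508 genes were called, among them ID1 at 0.23 and ID2 at 0.21 (edgeR adjusted p = 0.0270 and 0.00248). Over the 13 alternatives each of these was called in this 1 alone, with adjusted p up to 1.0. Of 33 other pathway genes tested, 2 were called higher and 2 lower in edgeR, against 0.393% and 0.479% of all genes. DESeq2 and the fit with no replicate block called 0 genes here. Whether the pathway genes named next stayed called within clusters is not given. GDF7, another BMP ligand, was higher in cells with BMP4 (1.81 ± 0.23, edgeR adjusted p = 6.02e-06), and so was the homeobox gene MSX1 (0.40 ± 0.10, adjusted p = 0.0348). The T-box gene TBX3 was lower (-0.28 ± 0.06, edgeR adjusted p = 0.0107). Among the other called genes, named here after their values were seen, TECRL (1.60) and NPNT (0.96) lead the cluster with the highest BMP4, and CXCL14 (-1.30) and MGP (-1.50) lead another. Called genes numbered 88 when cells were compared within clusters, an alternative chosen after seeing the data, and 90 with all cells thinned to 2000 UMIs. The comparison within clusters left out the NPNT and TECRL cluster and the MESP1 and MSGN1 cluster. Each had fewer than 20 cells without a BMP4 UMI in blastoid 4, so the cluster with the highest BMP4 was not covered.

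**Figure D5:**
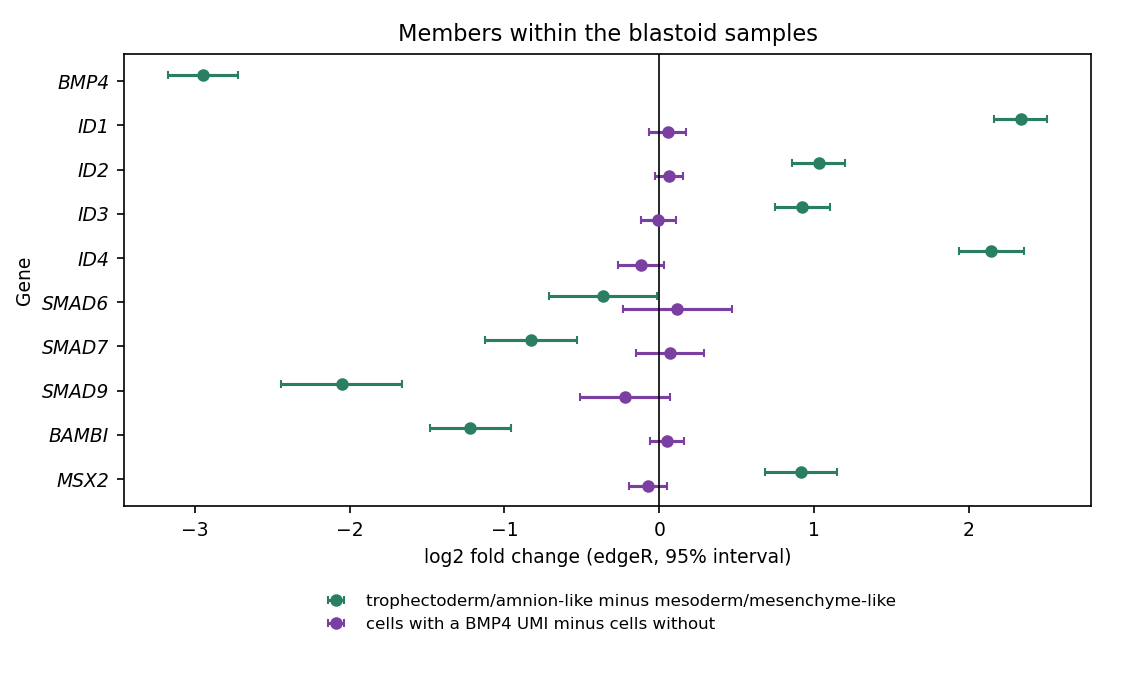
log2 differences with 95% intervals from edgeR for the trophectoderm/amnion-like against the mesoderm/mesenchyme-like class (green) and for cells with against cells without a BMP4 UMI (purple, without BMP4 itself). The green points run from -2.95 for BMP4 to 2.33 for ID1, and the purple intervals all cover 0.

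Of 54 further genes of the pathway, 41 could be tested between blastoids and stem cells, of which 25 were higher, 5 lower and 11 not called, against 27.1% higher and 22.8% lower over all genes. Of the 41, 15 were under the filter's minimum in at least 1 stem cell sample, and those of them that were called could only be higher. Of the other 26, 11 were higher, 5 lower and 10 not called. Their median log2 fold change was 0.79, against 0.05 over all genes. The 6 genes without a UMI in the kept stem cells did not set this median, which was the same with each at its bound against 3 UMIs. Of 11 ligands 5 were tested and called higher, but 4 of the 5 (BMP2, BMP5, GDF6 and GDF7) passed the filter through the blastoid samples, which leaves BMP7. BMP2 stood at 0.453 and 0.440 CPM in the stem cells and at 30.5 and 24.3 CPM in the blastoids (5.78 ± 0.25), and BMP5 had no UMI in the kept stem cells and stood at 33.3 and 22.5 CPM in the blastoids. BMP7, already present at 20.7 and 20.5 CPM, rose to 32.5 and 43.2 CPM (0.76 ± 0.19).

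Of 10 receptors and co-receptors tested, 3 were higher and 2 lower, shares near those over all genes. BMPR2, the type II receptor, stood at 13.7 and 12.8 CPM in the stem cells and 62.9 and 45.0 CPM in the blastoids (1.89 ± 0.17). The type I receptor BMPR1A stood at 54.0 and 51.8 CPM against 45.7 and 32.7 CPM (-0.57 ± 0.16), and the co-receptor RGMA at 8.83 and 9.93 CPM against 3.05 and 2.04 CPM (-2.02 ± 0.24). The largest receptor rise was that of ACVRL1, a type I receptor best known from endothelial cells, at 0 and 0.251 CPM against 2.65 and 2.04 CPM, with 0 and 4 stem cell UMIs behind it, under the filter's minimum. ACVR2B, another type II receptor, stood at 90.8 and 101 CPM against 91.1 and 99.0 CPM and was not called. Of 7 signal transducers 1 was higher, SMAD1 at 0.62 ± 0.14, and 2 were lower, the repressors SKIL at -1.45 ± 0.14 and SKI at -0.53 ± 0.16. SMAD5, which carries the signal as SMAD9 does, stood at 79.7 and 97.2 against 124 and 92.7 CPM and was not called. SMAD4, which both join, stood at 56.9 and 56.4 against 56.7 and 46.8 CPM and was not called either. Of 13 secreted antagonists and modulators tested, 10 were higher, 1 lower and 2 not called, and of the 8 that reached the minimum in both stem cell samples 5 were higher and 1 lower. FST, which encodes follistatin, stood at 19.0 and 14.4 CPM against 33.6 and 60.6 CPM (1.38 ± 0.31), and CHRDL1 fell from 4.22 and 4.84 CPM to 0.728 and 1.13 CPM (-2.38 ± 0.33). FSTL1 went from 110 and 116 CPM to 195 and 164 CPM (0.54 ± 0.12). The 6 further target genes tested were called higher, 4 of which (HAND1, TBX3, TBX2 and DLX5) had no UMI in the kept stem cells and could not have come out lower. HAND1, a transcription factor of extraembryonic and heart mesoderm, had no UMI in the kept stem cells and stood at 709 and 811 CPM in the blastoids. TBX3, also without a UMI there, stood at 328 and 239 CPM. HEY1, a target shared with Notch signalling, went from 0.981 and 0.817 CPM to 55.4 and 87.0 CPM (6.19 ± 0.36), and MSX1 went from 0.981 and 0.691 CPM to 229 and 194 CPM (7.86 ± 0.21).

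The ligands and antagonists were also divided between the 2 large blastoid classes. BMP2 (-3.11 ± 0.21), BMP5 (-6.28 ± 0.33) and GDF7 (-4.89 ± 0.42) were lower in trophectoderm/amnion-like cells on the log2 scale, as BMP4 was. BMP7 (1.68 ± 0.13) and GDF6 (1.89 ± 0.23) were higher there. Of 10 antagonists and modulators tested, 4 were higher in these cells, namely FST (1.80 ± 0.12), FSTL1 (1.27 ± 0.08), NOG (2.00 ± 0.38) and CHRD (2.34 ± 0.35). BMPER (-1.50 ± 0.28) and TWSG1 (-0.66 ± 0.15) were lower. Among receptors BMPR1A (0.59 ± 0.13) was higher and ACVRL1 (-2.56 ± 0.70) and RGMB lower, and among transducers SMURF1 (0.53 ± 0.18) was higher and SMAD1 (-0.66 ± 0.17), SKIL and SMAD5 lower. Of 6 further targets, HEY1 (2.60 ± 0.09) and DLX5 (4.70 ± 0.24) were higher and TBX2 (-2.39 ± 0.33), HAND1, MSX1 and TBX3 lower. In all, 10 of 36 pathway genes tested were higher and 15 lower, against 25.7% and 25.1% of all genes.

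The genes whose level over the 13 cluster sums was most like that of BMP4 were MPP6 (Pearson r = 0.9649), SCCPDH (0.9619), GLIPR2 (0.9586), RGS2 (0.9579) and ALDH2 (0.9527), out of 7788 genes with at least 500 UMIs in the blastoid cells. The list was not stable: between 0 and 5 of these 5 stayed among the first 5 under the 9 alternatives.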

How the data were processed

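Single cells of 2 hESC and 2 blastoid samples were measured as UMI counts per gene and cell. The deposited count tables were made with Cell Ranger on GRCh38, per the submitters' processing notes, and their annotation and cell filters are not given in the sources used here. Barcodes with at least 500 genes and at most 20% mitochondrial UMIs were kept (9680), and 73 Scrublet calls (0.754%) were removed, which left 9607 cells. The doublet caller found 0 calls in hESC 2. Cells were clustered with scanpy 1.11.5 (2000 variable genes, 30 principal components, 15 neighbours) and Leiden (leidenalg 0.10.2, resolution 0.5), without the 10 genes and the 54 pathway genes, and named from marker lists where at least 3 markers were seen in 10% of cells. Other gene lists (hypoblast/endoderm, endothelial, neuroectoderm and blood markers) gave a name to 1 cluster of 17 blastoid cells, endothelial-like, which was not tested.

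Kept cells with a barcode shared between samples were left out in 1 alternative. Counts were summed per sample, and per sample and class of at least 20 cells, and tested with edgeR 4.0.16 (TMM, filterByExpr, quasi-likelihood, Benjamini-Hochberg over all genes, R 4.3.3). The comparison of cells with and without BMP4 had sample and class as block. DESeq2 1.42.0, other filters, scalings, clusterings and thinnings were alternatives. The script was tested on simulated data. Counts were thinned to 2000 UMIs per cell, which left out 435, 973, 107 and 42 cells of hESC 1, hESC 2, blastoid 3 and blastoid 4. Clopper-Pearson 95% intervals were used for shares of cells.

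The 10 genes and the gene lists were chosen with earlier results of these data known. Of the pathway list, the called genes with the largest rise and fall in each role and those with at least 50 CPM in a group were to be named, and a few more are named for their role, after their values were seen. A gene of that list that the rule would name is not reported here. Promoter windows are 250 bases before the RefSeq start.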

Additional observations from a re-analysis of the deposited data

Results flagged for a closer look

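The difference between the trophectoderm/amnion-like and the mesoderm/mesenchyme-like blastoid cells was tested directly, on blastoid sums without the stem cells. It was past the threshold for 9 of the 10 genes, against 50.8% of the 13955 genes tested. The log2 difference was -2.95 for BMP4, 2.33 for ID1, 1.03 for ID2, 0.92 for ID3, 2.15 for ID4, -0.83 for SMAD7, -2.05 for SMAD9, -1.22 for BAMBI and 0.92 for MSX2. ID3 fell in the mesoderm/mesenchyme-like cells against the stem cells and was not called in the trophectoderm/amnion-like cells.

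BMP4 was also counted in the barcodes with fewer than 500 genes or more than 20% mitochondrial UMIs. Of the comparisons, only the alternative with all deposited barcodes used them. It stood there at 96.8 CPM in blastoid 3, from 44 UMIs, and at 37.3 CPM in blastoid 4, from 2 UMIs. In the hESC samples it stood at 8.32 CPM, from 12 UMIs, and at 4.99 CPM, from 9 UMIs.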

How the results depend on the processing

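Over all alternatives, 721 values kept their direction and their side of the threshold, 14 lost a call, 6 gained one and 14 changed sign. Leaving out 1 sample at a time gave 4896 to 10149 called genes between blastoids and stem cells, 1424 to 3513 for the pluripotent-like, 5197 to 9837 for the mesoderm/mesenchyme-like and 6114 to 9672 for the trophectoderm/amnion-like cells. With sums thinned to the smallest one, the counts for the 3 classes were 1355, 2808 and 3494. Between the 2 large classes, DESeq2 called 4087 genes and the fit with no replicate block 4566, in which BMP4 was at -2.94 and ID1 at 2.32. With and without BMP4, DESeq2 called 0 genes, the fit with no replicate block 0 (310 at an unadjusted p under 0.05), the clustering with BMP genes kept 32, and at least 2 BMP4 UMIs 508. No paired analysis was possible because the hESC and blastoid samples share no replicate number, for the comparisons with stem cells.

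ID3 changed sign between blastoids and stem cells without blastoid 3 (-0.55 to 0.06 over the 4 samples left out in turn), and its share of cells was 3.36 percentage points higher in blastoids without thinning, against -4.94 points at 2000 UMIs. SMAD9 in pluripotent-like cells was -0.45 at clustering resolution 1.0. In cells with and without BMP4, where none of these values was called, ID2 was -0.03 and BAMBI -0.03 with BMP genes kept in the clustering. ID3 was 0.01 with library size only, 0.02 with shared barcodes left out, at resolution 1.0 and with 15 components, 0.09 with at least 2 BMP4 UMIs and 0.06 after thinning. ID4 was 0.13 after thinning, SMAD6 -0.12 in DESeq2, and SMAD7 -0.02 with at least 2 BMP4 UMIs and -0.23 after thinning. Of the 5 genes most like BMP4, 1 remained with Spearman's rho, 0 with Scrublet calls kept, 2 with shared barcodes left out, 2 at resolution 1.0, 3 with 15 components, 1 with BMP genes kept, and 0 to 1 with 1 blastoid sample. The cause of these changes was not tested. The pluripotent-like class could not be tested with 15 components, BMP genes kept or shared barcodes left out. With shared barcodes left out, the reason was that fewer than 20 of its cells remained in blastoid 4. Tests within blastoids have no value with 1 blastoid sample. With library size only, the median log2 change of all genes moved from 0.05 to 0.18 between blastoids and stem cells, from 0.00 to 0.20 in mesoderm/mesenchyme-like cells and from -0.03 to -0.16 between the 2 classes. Depth limits SMAD9 most in the pluripotent-like cells, with 2 UMIs per sample.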
